A study of Mus musculus with 11 samples.

Results

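Sensory neurons of the dorsal root ganglion (DRG) are told apart by the transcription factors they keep expressing, and 10 such genes were followed in whole mouse DRGs: *Prdm12*, *Pou4f1*, *Isl1*, *Tlx3*, *Pou4f3*, *Etv1*, *Maf*, *Runx1*, *Shox2* and *Runx3*. They were chosen by gene name, 10 of the 36670 genes in the table, and all 10 were among the 15087 genes that passed the filter of a mean FPKM of at least 0.5. FPKM is a level scaled for transcript length and for library size, so it can be compared between genes.

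The 11 libraries came from 4 groups. WT control mice gave 3 libraries and WT mice at 4 weeks after paclitaxel (PTX) gave 3. *Gpr37l1* KO control mice gave 3 libraries, and KO mice at 4 weeks after PTX gave 2. PTX is a chemotherapy drug that stabilizes microtubules and causes painful neuropathy, and *Gpr37l1* encodes an orphan receptor of satellite glial cells, the glia that wrap DRG neurons. By the methods of the study, the KO mice carried the allele *Gpr37l1tm1Lex*, a knockout that is not limited to 1 cell type, and were kept with littermates on a C57BL/6 background. The study used adult mice, and the age of each mouse sequenced was not given in the sources used here. Each group held 2 males and 1 female, except KO PTX, with 1 male and 1 female. The labels do not say whether 1 library was 1 mouse. If it was not, p-values measure only the spread between libraries.

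Summed estimated counts were 52735648 to 80348732 per library, with a median of 75538569. The targeted gene *Gpr37l1* was at 14.6 to 35.7 FPKM in the WT libraries and at 0.21 to 1.15 in the KO libraries, every KO library below every WT library. The 6 pan-neuronal genes summed to 2347 to 3125 FPKM and the 4 satellite glia genes to 215 to 352, and 1 of 9 spinal cord genes passed the filter. Schwann cell genes summed to 1232 to 2168 FPKM, lymphocyte genes to 0.36 to 1.31, and skeletal muscle genes to 2.73 to 497. WT control 1 stood apart from the other libraries. It had the lowest depth and the lowest median correlation with the others (r = 0.970), and a single gene, *CT010467*, took 2.97% of its counts. Values without this library are given beside the main differences below.

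These factors act in layers. The homeodomain proteins Isl1 and Pou4f1 are made by nearly all somatosensory neurons and close the early neurogenic program. Prdm12, Tlx3 and Runx1 belong to the nociceptor branch, where Runx1 sets up the nonpeptidergic class that detects pain, itch and temperature. Runx3 and Etv1 are known from proprioceptors, Shox2 from touch neurons with the receptor TrkB, and Maf from rapidly adapting touch receptors. Since whole ganglia were sequenced, fewer cells of a type and less RNA per cell cannot be told apart.

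The Runx family is shown first by sequence, since Runx1 and Runx3 act in different neurons and bind the same core motif. The motif was searched as TGTGGT or ACCACA, the same letters on either strand, in RefSeq promoters of build GRCm38.p6 (300 bases, 250 before and 50 after a start site). Promoters were found for 8 of the 10 genes, 11 promoters in all, and 3 of these held the motif against 16.8% of all 32817 promoters. The promoters with a start site at the distal end of *Runx1* and of *Runx3* each held the motif in the same direction in tandem, 2 bases apart. This arrangement, ACCACANNACCACA or its reverse complement, was found in 7 of 32817 promoters (0.0213%). The others were those of *Runx2*, of *Gm16225*, whose window overlaps that of *Runx3*, and of *Gm12236*, *Gm15462* and *Olfr24*. The third promoter with the motif was 1 of 2 promoters of *Etv1*, with a single copy. In the windows below, of 30 bases each, capitals mark the motif and the strand is that of the gene. The windows lie at chr16:92826025-92826054 (minus strand) for *Runx1*, chr4:135120503-135120532 (plus) for *Runx3*, chr17:44814583-44814612 (minus) for *Runx2* and chr12:38779878-38779907 (plus) for *Etv1*.
Runx1: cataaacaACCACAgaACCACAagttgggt
Runx3: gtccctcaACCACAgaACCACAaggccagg
Runx2: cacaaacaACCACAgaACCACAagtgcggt
Etv1: aaggctggagcgTGTGGTgggtggactccg
The copies begin 29 bases into the *Runx1* transcript, 24 bases into that of *Runx2* and 134 bases before the start of *Runx3*. No binding was measured here, and a match describes only the letters.

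*Prdm12*, a chromatin-linked repressor that nociceptors need to form, was the most abundant of the 10. Its level was 54.9, 58.0 and 73.0 FPKM in WT controls, 64.5, 63.2 and 72.3 in WT PTX, 63.9, 62.7 and 67.3 in KO controls, and 67.7 and 79.3 in KO PTX. The groups compared overlapped, except that both KO PTX values were above every KO control. *Pou4f1* (Brn3a) followed at 34.96, 36.1 and 40.7 FPKM in WT controls, 38.6, 37.3 and 40.5 in WT PTX, 40.3, 36.5 and 42.7 in KO controls, and 37.8 and 38.1 in KO PTX. It varied least, with a coefficient of variation of 6.06% over the 11 libraries, and every pair of groups compared overlapped.

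*Isl1* was at 14.8, 22.1 and 19.5 FPKM in WT controls, 19.0, 20.6 and 17.9 in WT PTX, 19.6, 19.6 and 20.9 in KO controls, and 21.9 and 19.2 in KO PTX. Apart from the low WT control 1, its libraries lay between 17.9 and 22.1. *Tlx3*, a homeodomain factor of relay and nociceptive neurons, was at 24.7, 17.0 and 18.5 FPKM in WT controls, 16.3, 19.1 and 17.7 in WT PTX, 19.4, 16.0 and 17.7 in KO controls, and 19.1 and 20.6 in KO PTX. Here WT control 1 was the highest of all libraries, the opposite of its place for *Isl1*.

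*Pou4f3* (Brn3c), the paralog of *Pou4f1* best known from hair cells, was at 7.53, 7.49 and 10.6 FPKM in WT controls, 9.29, 9.98 and 8.63 in WT PTX, 9.39, 7.86 and 9.62 in KO controls, and 10.5 and 10.5 in KO PTX. *Etv1*, an ETS factor of proprioceptors, was at 5.54, 7.06 and 9.97 FPKM in WT controls, 9.60, 9.54 and 10.96 in WT PTX, 9.77, 8.88 and 9.86 in KO controls, and 8.88 and 9.80 in KO PTX. *Maf*, a bZIP factor of touch neurons that macrophages also make, was at 7.18, 8.27 and 8.87 FPKM in WT controls, 8.79, 8.90 and 8.62 in WT PTX, 9.31, 9.55 and 9.05 in KO controls, and 9.01 and 9.41 in KO PTX. For *Etv1*, the 2 male WT controls were below every other library, and the female WT control was not.

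*Runx1* was at 4.70, 5.54 and 7.05 FPKM in WT controls, 7.23, 6.63 and 8.21 in WT PTX, 6.70, 5.78 and 6.86 in KO controls, and 6.82 and 6.72 in KO PTX. *Shox2* was at 4.59, 4.99 and 6.32 FPKM in WT controls, 6.32, 6.31 and 6.70 in WT PTX, 5.75, 5.67 and 7.04 in KO controls, and 6.82 and 6.83 in KO PTX. *Runx3*, the factor of proprioceptors, was lowest at 1.38, 1.37 and 1.80 FPKM in WT controls, 1.67, 1.51 and 1.43 in WT PTX, 1.48, 1.26 and 1.76 in KO controls, and 1.38 and 1.92 in KO PTX. The same 2 male WT controls held the 2 lowest values of *Runx1* and of *Shox2* as well. Estimated counts behind these levels ran from 398 for *Runx3* to 16555 for *Pou4f1* in single libraries.

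**Figure D1:**
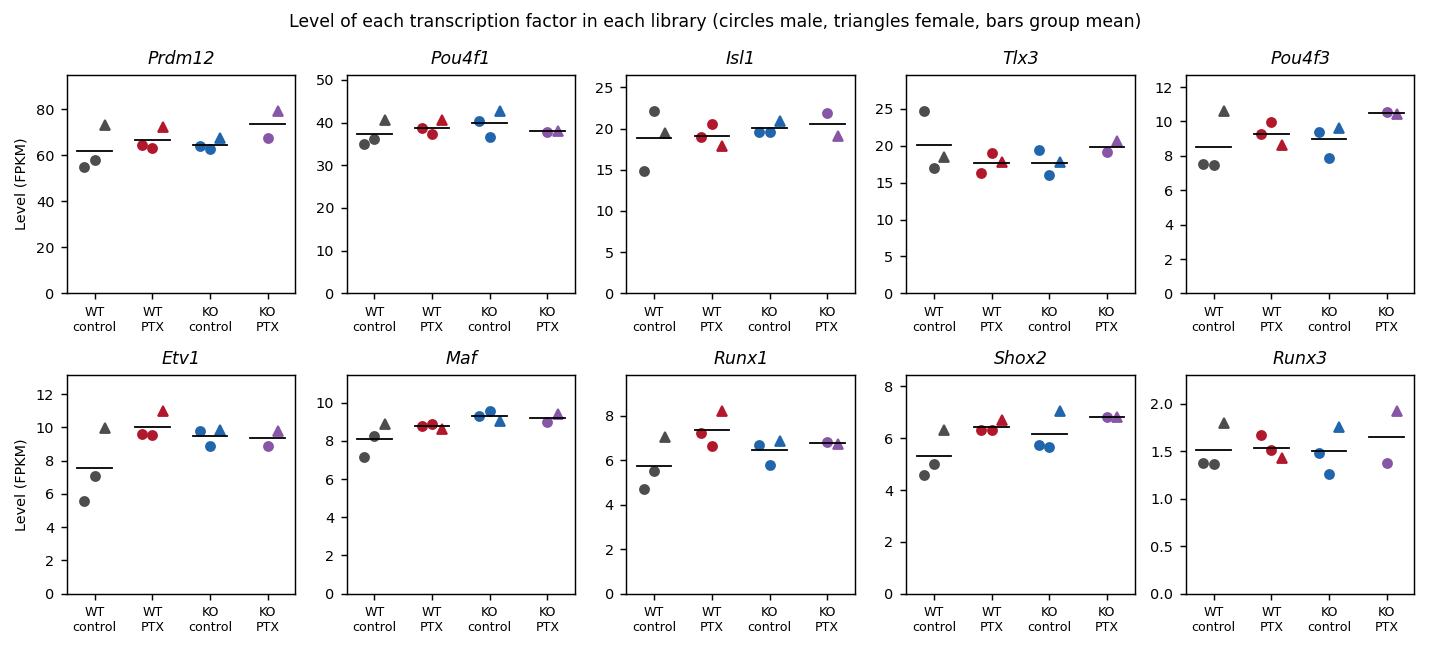
Level (FPKM, linear axis from 0) of each of the 10 transcription factors in every library, by group; circles are males, triangles females and bars the group mean. *Prdm12* reached 54.9 to 79.3 FPKM and *Runx3* 1.26 to 1.92, and the 2 male WT controls lay low for *Etv1*, *Runx1* and *Shox2*.

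The levels spanned 42.9-fold from *Prdm12* (mean 66.1 ± 6.92 FPKM, SD, n = 11) to *Runx3* (1.54 ± 0.213, SD, n = 11). Between them stood *Pou4f1* (38.5 ± 2.33), *Isl1* (19.5 ± 2.01), *Tlx3* (18.7 ± 2.42), *Pou4f3* (9.22 ± 1.18), *Etv1* (9.08 ± 1.52), *Maf* (8.81 ± 0.652), *Runx1* (6.57 ± 0.934) and *Shox2* (6.12 ± 0.791). The ratio of each gene to its lower neighbor was tested within libraries on log2(FPKM + 1) by flipping signs in an exact permutation test, two-sided, over the 11 libraries and adjusted over 9 pairs. Neighbors and their order were taken from the mean levels in these same 11 libraries, so the p-values are not an independent test of the order. In 5 pairs the upper gene was higher in 11 of 11 libraries (adjusted exact p = 0.00176, from the smallest p the test can give): *Prdm12* over *Pou4f1*, *Pou4f1* over *Isl1*, *Tlx3* over *Pou4f3*, *Maf* over *Runx1* and *Shox2* over *Runx3*. *Runx1* was above *Shox2* in 8 of 11 libraries by 0.09 on the log2 scale (adjusted exact p = 0.0264), a pair whose call was lost when any 1 of 6 libraries was left out (adjusted exact p = 0.0527). The levels of *Isl1* and *Tlx3*, of *Pou4f3* and *Etv1*, and of *Etv1* and *Maf* were not told apart (adjusted exact p = 0.661 for each). Without WT control 1, *Isl1* was called above *Tlx3* (adjusted exact p = 0.0264).

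All 10 genes have the same coordinates in the table as in GENCODE M21 on GRCm38. *Runx1* lies at chr16:92601466-92826149 and *Runx3* at chr4:135120652-135177990, with 7 and 6 annotated transcripts. *Etv1* lies at chr12:38779380-38870484, with 13 annotated transcripts, and *Shox2* at chr3:66971727-66981771, with 5. *Prdm12* (chr2:31640037-31655795) and *Tlx3* (chr11:33200752-33203589) have 1 transcript each. An exon on the opposite strand overlaps an exon of *Runx1* (*Gm26626*, mean 0.0191 FPKM), *Shox2* (*Rsrc1*, 4.64), *Prdm12* (*Gm13425*, 18.4) and *Maf* (*Gm15655*). The library kit kept strand, but whether the counting used it was not given in the sources used here. Reads of *Shox2* and *Prdm12* shared with these partners would therefore be uncertain.

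PTX was compared with control in WT mice to ask how these genes stood 4 weeks after PTX. None of the 10 passed an adjusted p of 0.05 in edgeR, where 1 of 15087 genes did (0.00663%). The largest differences were those of *Etv1*, *Runx1* and *Shox2*. *Etv1* had a mean of 10.03 ± 0.803 FPKM after PTX and 7.52 ± 2.25 in controls (SD, n = 3 each), a log2 fold change of 0.43 (SE 0.12, 95% interval 0.16 to 0.71, edgeR adjusted p = 0.245). *Runx1* had 7.36 ± 0.798 against 5.76 ± 1.19 FPKM, a log2 fold change of 0.36 (SE 0.10, 95% interval 0.13 to 0.58, edgeR adjusted p = 0.244). *Shox2* had 6.44 ± 0.222 against 5.30 ± 0.906 FPKM, a log2 fold change of 0.29 (SE 0.09, edgeR adjusted p = 0.281). These were the 3 members at an unadjusted p under 0.05, all higher after PTX, where 6.59% of all genes tested were. No member was free of overlap between the groups, against 6.81% of all genes above without overlap. For each of these 3 genes the female WT control lay within the PTX range.

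The call for 2 of these genes turned on the test. DESeq2 put *Etv1* (adjusted p = 0.0298) and *Runx1* (adjusted p = 0.0466) past the threshold with nearly the same fold changes, in a comparison where it called 309 genes (2.05%). *Shox2* was not called by DESeq2 (adjusted p = 0.137). Without WT control 1 the log2 fold changes in edgeR were 0.29 for *Etv1*, 0.27 for *Runx1* and 0.23 for *Shox2*. Macrophage genes moved with this comparison. The 8 summed to 29.9 to 39.7 FPKM in WT controls and 21.9 to 26.7 after PTX, and 6 of 8 were lower at an unadjusted p under 0.05, none past adjustment, where 6.87% of all genes were lower. With the macrophage level of each library as a covariate, chosen after seeing the data, the log2 fold change was 0.02 for *Etv1*, 0.09 for *Shox2* and -0.13 for *Runx1*, with SEs of 0.28, 0.22 and 0.19. With the pan-neuronal level as a covariate they were 0.44, 0.29 and 0.36. The part of macrophages in these differences was not tested. *Runx1* also acts in blood cells, and the 7 red cell and neutrophil genes summed to 211 to 315 FPKM in WT controls and 95.5 to 315 in WT PTX. All 7 had negative log2 fold changes, none at an unadjusted p under 0.05, and their part was not tested.

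The other 7 genes differed less after PTX in WT. *Pou4f3* (0.13), *Maf* (0.11), *Prdm12* (0.11), *Pou4f1* (0.06), *Runx3* (0.04) and *Isl1* (0.02) had small positive log2 fold changes, and *Tlx3* had -0.18. That of *Tlx3* was 0.01 without WT control 1, the library with its highest level. The 95% interval of *Pou4f1* was -0.07 to 0.19, the narrowest of the 10. The median log2 fold change of the 10 genes was 0.11, beside -0.01 over all genes tested.

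**Figure D2:**
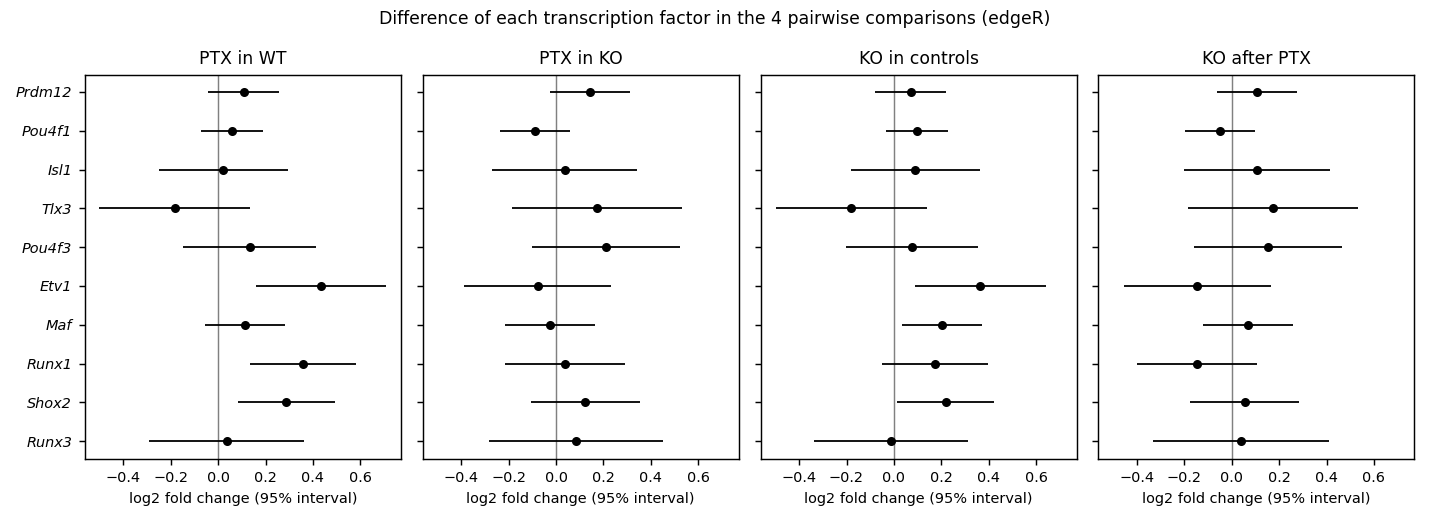
Log2 fold change with 95% interval (edgeR, 11 libraries in one fit) of each gene in the 4 pairwise comparisons; the line at 0 marks no difference. The intervals of *Etv1*, *Runx1* and *Shox2* lie above 0 for PTX in WT, and those of *Etv1*, *Shox2* and *Maf* for KO in controls, none past adjustment.

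In KO mice the same comparison addressed the response to PTX without the receptor. No member passed (1 gene of all tested, 0.00663%), and none had an unadjusted p under 0.05, where 4.32% of all genes did. Log2 fold changes ran from -0.09 for *Pou4f1* to 0.21 for *Pou4f3*, with -0.08 for *Etv1*, 0.04 for *Runx1* and 0.12 for *Shox2*. Both KO PTX libraries were above all KO controls for *Pou4f3* and *Prdm12*, 2 of 10 members where 11.3% of all genes were. With 2 libraries in the group, this lack of overlap is common. Genes of the spinal cord summed to 3.41 FPKM in KO PTX 2, 9.62 in KO PTX 3 and 1.32 to 3.53 in the others. The same 2 KO PTX libraries enter KO after PTX, and the part of spinal cord genes was not tested.

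*Gpr37l1* KO was compared with WT in controls and again after PTX. In controls no member passed (0.00663% of all genes did). *Etv1* was at 9.50 ± 0.542 FPKM in KO and 7.52 ± 2.25 in WT (SD, n = 3 each), a log2 fold change of 0.37 (SE 0.12, edgeR adjusted p = 0.657). *Shox2* had 0.22 (SE 0.09) and *Maf* 0.20 (SE 0.08) (edgeR adjusted p = 0.657 for both). These 3 were the members at an unadjusted p under 0.05, all higher in KO, where 3.96% of all genes were. *Maf* alone did not overlap, with KO values of 9.05 to 9.55 FPKM above WT values of 7.18 to 8.87, where 4.55% of all genes were above without overlap. Without WT control 1 the log2 fold changes were 0.22 for *Etv1*, 0.16 for *Shox2* and 0.13 for *Maf*. Of the 8 macrophage genes, 6 were lower and 2 higher in KO (*Cd163* and *Cd68*), and macrophages also make *Maf*. The list summed to 28.0 to 30.3 FPKM in KO controls and 29.9 to 39.7 in WT controls, with overlap. At an unadjusted p under 0.05, 3 of 8 were lower (*Aif1*, *C1qb* and *Adgre1*), where 3.58% of all genes were. None passed adjustment. With the macrophage level as a covariate the log2 fold changes were 0.15 for *Etv1*, 0.11 for *Shox2* and 0.17 for *Maf*. Their part was not tested. This comparison and PTX in WT share the WT controls, so low values there enter both.

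After PTX, the log2 fold changes of KO against WT ran from -0.15 for *Runx1* and *Etv1* to 0.18 for *Tlx3*. No member passed (0.0133% of all genes did), and none had an unadjusted p under 0.05 (3.55% of all genes). *Maf*, *Pou4f3*, *Shox2* and *Tlx3* were above WT in both KO libraries, 4 of 10 members where 10.7% of all genes were. The gaps were small. *Shox2* was at 6.82 and 6.83 FPKM beside a highest WT value of 6.70, and *Tlx3* at 19.14 and 20.63 beside 19.06.

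Over both genotypes, PTX gave a log2 fold change of 0.21 for *Shox2* (SE 0.07), 0.20 for *Runx1* (SE 0.08) and 0.13 for *Prdm12* (SE 0.05), none past adjustment (the lowest edgeR adjusted p of a member was 0.447, and 0.0133% of all genes passed). These 3 were higher at an unadjusted p under 0.05, where 3.83% of all genes were. Without KO PTX 2 the value of *Runx1* was 0.12, and without WT control 1 the values were 0.18 for *Shox2*, 0.16 for *Runx1* and 0.11 for *Prdm12*. Of the macrophage genes 4 of 8 were lower at an unadjusted p under 0.05, and of the skeletal muscle genes 4 of 6 (median log2 fold change -2.16), where 5.53% of all genes were, and their part was not tested. Over both treatments, KO gave 0.13 for *Maf* (SE 0.06, edgeR adjusted p = 1.00), the only member at an unadjusted p under 0.05 and higher, where 1.82% of all genes were and 0.0133% passed adjustment. The PTX effect differed between genotypes by -0.51 for *Etv1* (SE 0.19, edgeR adjusted p = 0.724), lower in KO, where 3.18% of all genes were lower at an unadjusted p under 0.05 and 0.00663% passed. For *Runx1* this difference was -0.32 (SE 0.15), with a 95% interval of -0.66 to 0.02. Without WT control 1 the differences were -0.35 for *Etv1* and -0.22 for *Runx1*, and the KO value of *Maf* over both treatments was 0.10.

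Sex was in the fit as a covariate, and its own comparison was added after the values were seen. There were 5 genes higher in females at an unadjusted p under 0.05, where 4.32% of all genes were. These were *Etv1* (log2 difference 0.27), *Runx1* (0.21), *Prdm12* (0.20), *Shox2* (0.20) and *Pou4f1* (0.11). None passed edgeR, whose lowest adjusted p of a member was 0.439, where 0.0398% of all genes passed. DESeq2 called *Prdm12* (adjusted p = 0.0494), where it called 0.815% of all genes. Without WT control 3, 1 of the 4 females, the differences were 0.14 for *Etv1*, 0.13 for *Runx1*, 0.15 for *Prdm12*, 0.14 for *Shox2* and 0.09 for *Pou4f1*. Without WT control 1 they were 0.21, 0.17, 0.19, 0.18 and 0.10. The female of each group carries replicate number 3, so sex and number cannot be told apart. For *Prdm12*, the female was the highest library in each of the 4 groups.

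Most of the 10 genes had their lowest level in the same library, while no library held the highest level of more than 2. WT control 1 had the lowest level of 7 of the 10 and the highest of *Tlx3*, and 9 of 10 were below their own mean in each of WT controls 1 and 2. In WT control 3, the female, 1 of 10 was below its mean. KO control 2 had 8 of 10 below, and KO PTX 3 had 2 of 10. The median deviation of log2(FPKM + 1) from the gene's mean was -0.26 in WT control 1, -0.15 in WT control 2 and -0.08 in KO control 2, and lay between 0.01 and 0.13 in the other libraries. The coefficient of variation over all libraries was 6.06% to 16.7% for the members, beside a median of 11.3% over all genes tested, and 4 members were under that median.

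**Figure D3:**
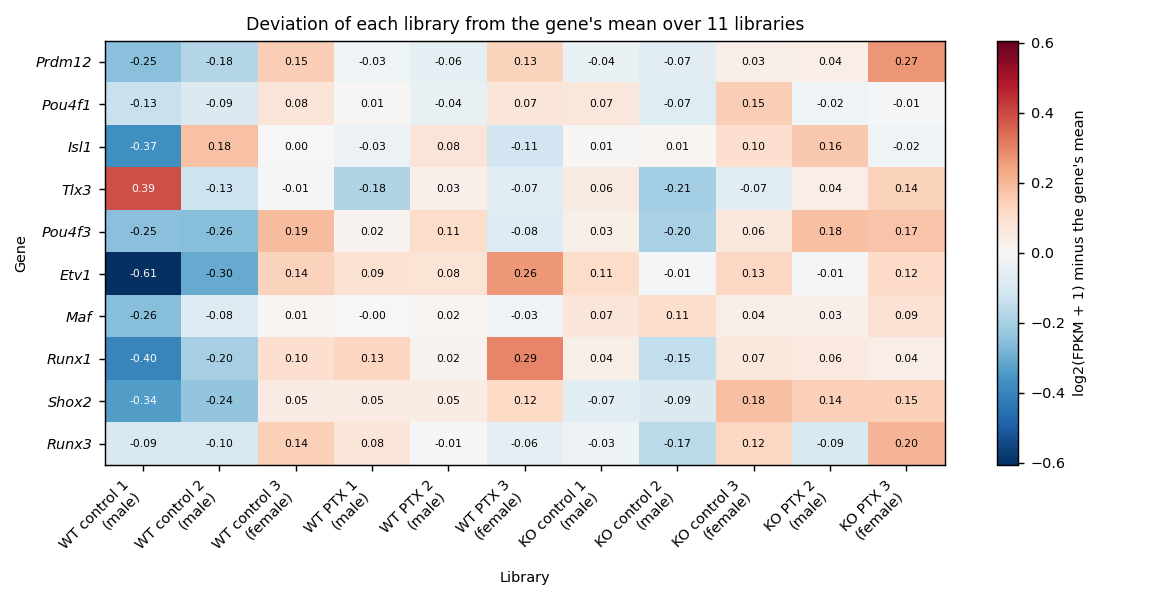
Deviation of log2(FPKM + 1) from each gene's mean over 11 libraries, with genes as rows in order of level and libraries as columns; blue is below the mean and red above. WT control 1 held -0.61 for *Etv1*, -0.40 for *Runx1* and 0.39 for *Tlx3*.

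Over the 11 libraries, Pearson's r between members ran from -0.62 to 0.93 in 45 pairs, with a median of 0.56. All points share the libraries and the group differences, and r is a description. *Etv1* and *Runx1* were the pair most alike (r = 0.93, Spearman's rho = 0.82, and r = 0.82 without WT controls 1 and 2). *Etv1* and *Maf* had r = 0.80, which was -0.57 without those libraries, so this likeness rested on them. *Tlx3* took part in all 7 pairs with a negative r, and 6 of these were positive, up to 0.76, with WT control 1 and 1 other library left out. The number of pairs with r over 0.5 was 25 with all libraries and 15 with the 2 libraries farthest from the median left out.

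The 3 genes most like each member were found among all genes tested by r of log2(FPKM + 1) over 11 libraries. They were picked for their high r, so these values are a description only. For *Runx1* they were *Gm5454* (r = 0.98), *Son* (0.98) and the potassium channel gene *Kcnb2* (0.96). For *Etv1* they were the peroxisomal transporter gene *Abcd2* (0.99), *2610002M06Rik* (0.98) and *Zmat1* (0.97), and for *Shox2* *Zfyve9* (0.98), *Rims1* (0.97) and *Thsd7b* (0.96). *Prdm12* was most like *Tshz2* (0.97), *Dkc1* (0.97) and *Srgap3* (0.95), and *Pou4f1* was most like *Cstf2t* (0.96), the sodium channel subunit gene *Scn4b* (0.93) and *Zfp516* (0.92). *Isl1* stood with *5330434G04Rik* (0.96), *Traf6* (0.95) and *Ywhag* (0.94). *Tlx3* stood with *Ranbp3* (0.94), *Snx21* (0.93) and *Eif3f* (0.93). *Pou4f3* stood with *Rnf182* (0.95), *Plpp6* (0.93) and *Pcnx2* (0.92). *Maf* stood with *Golim4* (0.98), *Tmem169* (0.93) and *Slitrk3* (0.93), at 0.90, 0.50 and 0.35 without WT controls 1 and 2. *Runx3* was closest to the inward rectifier gene *Kcnj2* (0.92), the transcription factor gene *Cux2* (0.89) and *E130102H24Rik* (0.89). Without WT controls 1 and 2, the genes named for *Etv1* were at 0.89, 0.81 and 0.81. With 2 libraries left out for each member, values other than those of *Maf* ran from 0.74 (*Isl1* with *Ywhag*) to 0.95 (*Pou4f3* with *Plpp6*).

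Ratios of paired factors were taken within each library as log2 of FPKM + 1. *Runx1* over *Runx3* was 1.26, 1.46 and 1.52 in WT controls, 1.62, 1.60 and 1.92 in WT PTX, 1.63, 1.58 and 1.51 in KO controls, and 1.72 and 1.40 in KO PTX. All WT PTX values were above all WT controls, by 0.30 in the mean (exact two-sided permutation p = 0.1, the smallest that 3 against 3 libraries allow). The difference was 0.20 without WT PTX 3 and 0.22 without WT control 1. The KO groups overlapped each other, with a difference of -0.02 (exact permutation p = 1.0). KO controls were 0.16 above WT controls (exact permutation p = 0.2), and 0.08 above without WT control 1. KO PTX was below WT PTX in the mean (log2 difference -0.16, exact permutation p = 0.6), by a difference of -0.05 without WT PTX 3, -0.31 without KO PTX 2 and -0.00056 without KO PTX 3.

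*Pou4f1* over *Isl1* was 1.18, 0.68 and 1.03 in WT controls, 0.99, 0.83 and 1.14 in WT PTX, 1.01, 0.86 and 1.00 in KO controls, and 0.76 and 0.95 in KO PTX. Every pair of groups overlapped. The differences were 0.02 for PTX in WT and -0.10 for PTX in KO, -0.01 for KO in controls and -0.13 for KO after PTX (exact permutation p of 0.4 to 1.0). Without WT control 1 those of PTX in WT and of KO in controls were 0.13 and 0.10. Comparisons with 2 libraries cannot go below an exact p of 0.2.

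**Figure D4:**
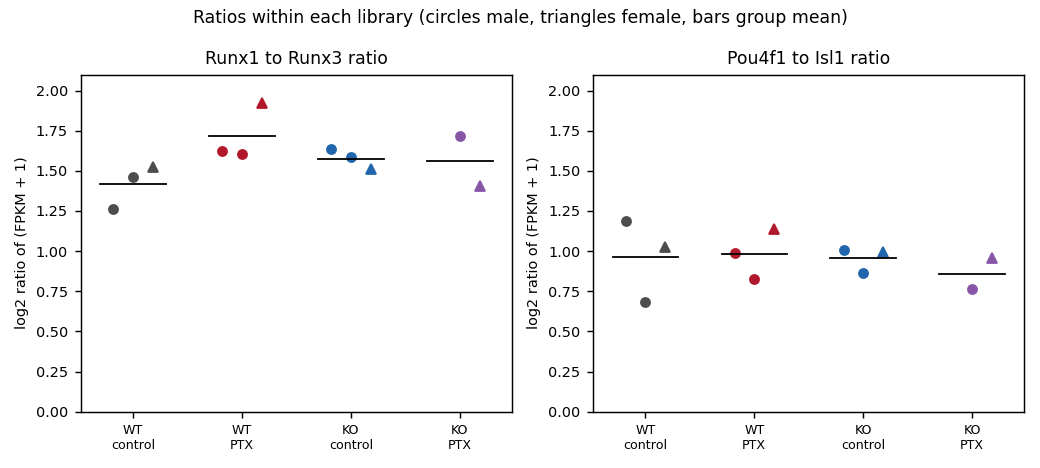
Log2 ratio of FPKM + 1 of *Runx1* to *Runx3* (left) and of *Pou4f1* to *Isl1* (right) in each library, by group; circles are males, triangles females and bars the group mean. The *Runx1* to *Runx3* ratio was 1.60 to 1.92 in WT PTX and 1.26 to 1.52 in WT controls, without overlap.

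Other transcription factors and cofactors of sensory neurons made a list of 27, of which 23 were tested. None passed in any of the 7 comparisons of the design. For PTX in WT, 4 were higher and 3 lower at an unadjusted p under 0.05, where 6.59% of all genes were higher and 6.87% lower, with a median log2 fold change of 0.02. Over both genotypes, the smallest unadjusted p values for PTX were those of *Ldb2*, a LIM-domain binding cofactor of Isl1 (log2 fold change 0.27, SE 0.07), and *Pou4f2*, the Brn3b paralog (0.37, SE 0.12). *Ldb2* was at 26.5 to 36.6 FPKM in WT controls, 36.4 to 44.9 in WT PTX, 33.7 to 37.9 in KO controls and 38.7 to 45.5 in KO PTX, and the WT groups overlapped slightly. For KO over both treatments they were those of *Meis2* (0.22, SE 0.07) and *Ldb2* (0.14, SE 0.07).

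Genes of the program that Runx1 sets up in nociceptors were followed. Whether Runx1 regulates each of them in adult mice was not tested. None of 12 passed in any comparison of the design. For PTX in WT, 4 were higher and none lower at an unadjusted p under 0.05, where 6.59% of all genes were higher, and the median log2 fold change of the list was 0.21. The list summed to 407, 429 and 483 FPKM in WT controls 1, 2 and 3. WT PTX libraries held 455 to 474, so the groups overlapped. For PTX in KO, 1 was lower and none higher, where 2.57% of all genes were lower, with a median of -0.06. KO in controls gave 3 higher, where 3.96% of all genes were, with a median of 0.21. PTX in WT uses the same WT controls, so low values there enter both comparisons. In PTX over both genotypes the smallest p values were those of *Mrgprd*, a receptor of nonpeptidergic nociceptors (log2 fold change -0.24, SE 0.10), and *Scn11a*, which encodes the sodium channel Nav1.9 (0.12, SE 0.05). In KO over both treatments they were those of *Mrgpra2b* (0.39, SE 0.11) and *Mrgprd* (-0.33, SE 0.10). For *Mrgprd*, PTX gave 0.01 in WT and -0.50 in KO (difference -0.51, SE 0.20), and KO gave -0.07 in controls and -0.58 after PTX, none past adjustment. Its level in KO PTX (20.7 to 27.3 FPKM) overlapped that in KO controls (24.8 to 39.98) and in WT PTX (25.4 to 40.7). *Mrgprd* was also higher in females by 0.52 (SE 0.10, edgeR adjusted p = 0.247). Some *Mrgpra* and *Mrgprb* genes are close copies of each other, so reads split between those copies are uncertain.

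Genes of myelinated touch and position sensing neurons, the classes of Shox2, Maf, Runx3 and Etv1, numbered 8. For PTX in WT 3 were higher and none lower at an unadjusted p under 0.05 (6.59% and 6.87% of all genes), with a median log2 fold change of 0.13. The list summed to 743 to 779 FPKM in WT controls and 745 to 801 in WT PTX, with overlap. In PTX over both genotypes the smallest p values were those of *Ntrk2*, the TrkB gene (0.14, SE 0.04), and *Pvalb*, a calcium-binding protein gene of proprioceptors (-0.68, SE 0.26). *Pvalb* was at 42.5 to 122 FPKM in WT controls and 47.7 to 67.1 in WT PTX, so the WT groups overlapped. It was at 61.4 to 99.5 in KO controls and 54.9 to 55.3 in KO PTX. Skeletal muscle genes were lower in this comparison too (median log2 fold change -2.16), and their part was not tested. In KO over both treatments *Whrn* had a log2 fold change of 0.09 (SE 0.06). Genes of peptidergic nociceptors, the class that Runx1 holds back, numbered 5. For PTX in WT 3 were lower and none higher (6.87% and 6.59% of all genes), with a median of -0.33. These 5 genes summed to 1036, 1310 and 895 FPKM in WT controls 1, 2 and 3 and to 775 to 944 in WT PTX, with overlap. The 6 pan-neuronal genes summed to 2630 to 3125 FPKM in WT controls and 2347 to 2776 in WT PTX. Of these, 2 were lower and 1 higher at an unadjusted p under 0.05, and their part was not tested. Over both genotypes *Tac1*, the substance P gene, had -0.27 (SE 0.10) and *Calca*, the CGRP gene, -0.21 (SE 0.08). In KO over both treatments *Tac1* had -0.13 (SE 0.10) and *Calca* -0.07 (SE 0.08). None of either list passed adjustment in any comparison of the design.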

How the data were processed

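Poly(A) RNA of mouse DRGs was sequenced by the authors with a stranded kit, and 1 table of 36670 genes was deposited for the 11 libraries. Its FPKM values and its estimated counts were made by the authors. The submitters' processing notes name cutadapt, FastQC, HISAT2, StringTie and the build mm10, with roles and versions not given in the sources used here. Deposited counts were rounded to whole numbers. A count of 4 was held by 1117 to 1369 genes per library against 515 to 573 at a count of 3, so they were treated as estimates. Groups and sex came from the labels. The KO PTX libraries are numbered differently in titles and descriptions, and the descriptions were used. By replicate number, the deviations of WT and KO controls had r over 0.1 in all 3 pairs (0.11 to 0.23). None of the other 3 comparisons between groups had r over 0.1 in all its pairs. Number 3 is also the female of each group.

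Of all genes, those whose FPKM averaged 0.5 or more entered edgeR 4.0.16 (R 4.3.3, TMM, quasi-likelihood, sex as covariate, all 11 libraries in one fit, Benjamini-Hochberg adjustment over 15087 genes, threshold 0.05). Ratios used a pseudocount of 1 and exact permutation (Python 3.11.15, scipy 1.17.1). Alternatives used DESeq2 1.42.0 and limma 3.58.1. The edgeR fit was also run on simulated data, and the share of differences it recovered is not given here. Members and lists were chosen with earlier results of these data known. The genes named were the members, the 3 genes most like each, and the 2 genes of each list with the smallest p for PTX over both genotypes and for KO over both treatments. A gene that this rule names is not reported here. No human data were used here.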

Additional observations from a re-analysis of the deposited data

How the results depend on the processing

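The number of members past an adjusted p of 0.05 was 0 in each of the 7 comparisons and for sex under every alternative but DESeq2, which gave 2 for PTX in WT and 1 for females against males. Of 16 member values at an unadjusted p under 0.05, those 3 were the gains among 348 alternative values, and 2 changed sign, both with the macrophage covariate: *Runx1* was -0.13 for PTX in WT and -0.10 for PTX over both genotypes. The cause was not tested. The other 64 member values changed sign in 106 of 1432 alternatives. The count of neighbors told apart in level was 6, 5 to 7 with 1 library left out, and 0 over the WT controls alone, where 3 libraries cannot give an exact p under 0.25.

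The 15 pairs of libraries with the same replicate number had a mean correlation of deviations of 0.08 (-0.16 to 0.25), with 7 over 0.1. All 3 pairs of WT and KO controls were over 0.1, and 0 of 3 for PTX in WT, 0 of 2 for PTX in KO and 1 of 2 for KO after PTX. With the replicate block 0 members passed in each comparison, and 1, 1, 1, 2, 2, 2 and 1 genes did, so no call of a member changed. Under the block the *Runx1* to *Runx3* difference for PTX in KO was 0.012. With 1 library left out it ran from -0.17 to 0.14. The *Pou4f1* to *Isl1* difference ran from -0.12 to 0.13 for PTX in WT and from -0.15 to 0.10 for KO in controls.

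Over all genes, edgeR and DESeq2 called 1 and 309 for PTX in WT, 1 and 29 for PTX in KO, 1 and 42 for KO in controls, 2 and 10 for KO after PTX, 2 and 125 for PTX over both genotypes, 2 and 28 for KO over both treatments, 1 and 12 for PTX by genotype, and 6 and 123 for sex. Leaving out single libraries gave up to 30, 7, 4, 7, 18, 5, 6 and 12, and other settings up to 5, 4, 1, 5, 3, 2, 1 and 14.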
